A study of Mus musculus with 8 samples.

Results

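Ion channels and neurotransmitter receptors were examined in mouse neuro2a (N2a) cells, a neuroblastoma line used as a model of neurons, after knockdown of Grp94. Grp94, the product of Hsp90b1, helps newly made proteins to fold in the endoplasmic reticulum (ER), the compartment where channel and receptor proteins are folded and assembled. The members were the transcript clusters whose gene symbol begins with the prefix of a channel or receptor family (potassium, calcium, sodium, HCN, CLC and TRP channels, and receptors for glutamate, GABA, glycine, acetylcholine, ATP and serotonin). A transcript cluster is a group of transcripts of a gene that the array reads through a common set of probes. Of 2395 transcript clusters that the authors deposited, this rule found 15, from 14 genes, since Scn9a had a pair of them. Each of the 15 carried a single symbol, and each symbol named a channel or receptor subunit.

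The arrays (Affymetrix Mouse Gene 1.0 ST) numbered 8, of which 4 are labelled as vector and 4 as Grp94 knockdown. All cells were transiently transfected N2a cells. The knockdown cells received plasmids expressing an artificial microRNA against Grp94, and the control cells are labelled as vector only, which the series text calls empty. The study's methods name more than 1 Grp94 construct and also a non-targeting control vector. The construct behind each array is not labelled, and neither is whether arrays came from separate cultures. Only the authors' mean of each group was used here, so no value has an SD, no test was run, and the number of arrays limits the precision. The table holds transcript clusters within the authors' limit of 0.01 on the adjusted p. This limit is the only link of the values to the spread between arrays, and a gene that is not listed has no value here. The authors' means are log2 values centred for each transcript cluster, so they show no level of expression, and the neuronal identity of the cells could not be checked from them. Of 15 markers of neuroblastoma and sympathetic neurons, 5 were listed, 3 lower and 2 higher. No glial marker of 5 was listed, and of 4 fibroblast markers only Lum was. Differences below are the authors' knockdown mean minus the authors' vector mean on the log2 scale.

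Hsp90b1 itself was 0.74 in the vector and -0.78 in the knockdown, a difference of -1.52 or 2.87-fold lower, and only 2 transcript clusters of the table had a lower value. The targeted gene was thus lower in the group labelled as its knockdown.

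As background, voltage-gated channels open with a change of membrane potential. Sodium channels carry the upstroke of the action potential, potassium channels restore the resting potential and calcium channels couple firing to transmitter release. Transmitter receptors either are ion channels themselves or act through G proteins. Many of these proteins work as assemblies of a pore and auxiliary subunits put together in the ER.

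Of the 15 transcript clusters, 9 had a lower and 6 a higher mean in the knockdown than in the vector. The share of 60% lower lay beside 59.9% over all 2395 transcript clusters (40.1% were higher). Past a fold of 1.3, or 0.38 on the log2 scale, 4 members (26.7%) were lower, against 16.1% of the whole table, and no member was higher, against 6.26%. The members that passed were P2rx3, both transcript clusters of Scn9a, and Cacng3. With 1 transcript cluster per gene, 3 of the 14 genes were lower past this fold, so the count of 4 rests partly on Scn9a. The last inside the threshold was Cacng3 at -0.44 (1.36-fold) and the first outside it was Kcnab2 at -0.34 (1.26-fold). The median difference was -0.24 for the members and -0.16 for the whole table, and the median absolute difference was 0.27 and 0.25. Only the transcript clusters selected by the authors' limit enter the median of the table, so it need not be a shift shared by all values. Relative to this median, P2rx3 was at -0.77, both Scn9a transcript clusters at -0.38 and -0.33, and Cacng3 at -0.28, while Scn3a changed sign to 0.0026. After this subtraction 2 members were lower and 3 were higher past a fold of 1.3, beside 6.64% and 22% of the whole table. Chrm4 at 0.50 and Htr6 at 0.38 were among the higher ones.

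**Figure D1:**
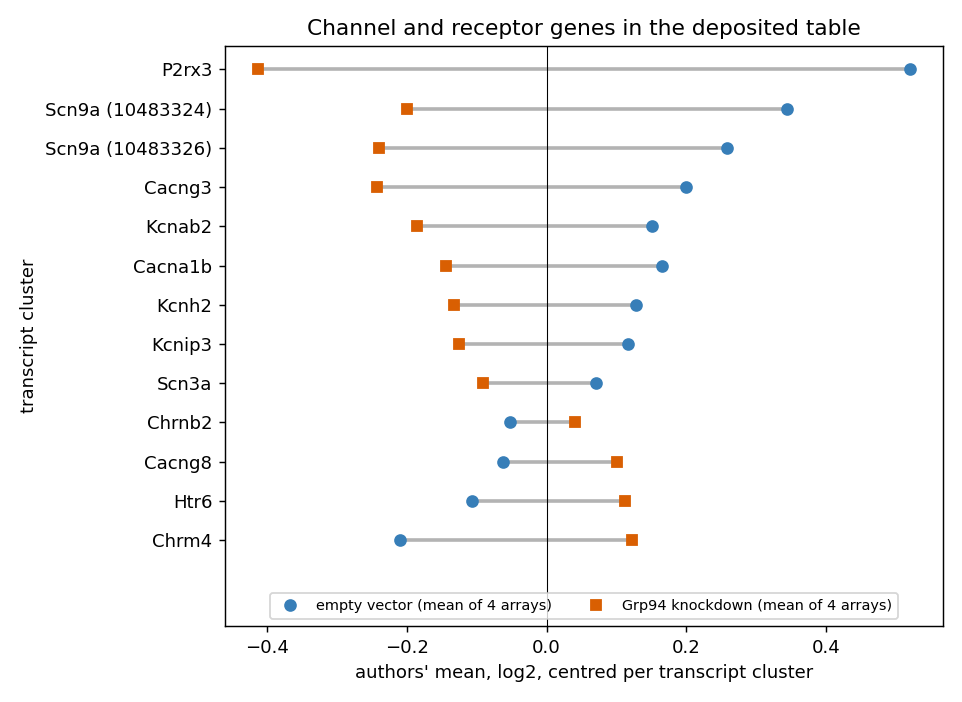
Authors' centred log2 means (horizontal axis) of the empty vector (circles) and the Grp94 knockdown (squares) for 13 of the 15 channel and receptor transcript clusters, ordered by their difference; each point is a mean of 4 arrays, with no error available. P2rx3 has the widest gap, from 0.52 to -0.41, and the order of both groups turns between Scn3a and Chrnb2.

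The plot of the group means orders these members by their difference. The centred means lie on opposite sides of 0 in all 2395 transcript clusters, members included, so the crossing of the axis is not particular to channels and receptors.

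P2rx3 had the largest difference among the members. It encodes a subunit of ATP-gated cation channels that is best known from sensory neurons. The authors' mean was 0.52 in the vector and -0.41 in the knockdown, a difference of -0.93 or 1.91-fold lower, read by 28 probes (chromosome 2, 84836709 to 84875991, minus strand, in the coordinates of the deposited table, whose genome build is not given in the sources used here). Only 30 transcript clusters of the table had a lower value. P2rx3 was the only listed gene of the 7 P2X receptor genes in RefSeq, and the next member in order, Scn9a, was at -0.55.

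Sodium channels were next. Scn9a encodes the pore of a voltage-gated sodium channel of peripheral sensory and sympathetic neurons. Its main transcript cluster (chromosome 2, 66321063 to 66406311, minus strand, 26 probes) was 0.26 in the vector and -0.24 in the knockdown, a difference of -0.50 or 1.41-fold lower. A second transcript cluster of 126 bp (66320634 to 66320759, 25 probes) lies 303 bp away on the side of the gene's 3' end and was 0.35 and -0.20, a difference of -0.55 or 1.46-fold lower. The different probes of this gene thus gave differences of the same direction and nearly the same size on the same 8 arrays. Scn3a, which encodes a sodium channel pore known from the developing brain, lies 945900 bp from the nearer Scn9a transcript cluster on the same strand (65331182 to 65374733). Its means were 0.07 and -0.09, a difference of -0.16 or 1.12-fold lower, and 0.0026 relative to the median of the table. Both genes belong to a family of 10 sodium channel pore genes in RefSeq, and none of the 4 genes of its beta subunits was listed.

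Calcium channel genes were listed in 3 cases. Cacna1b encodes the pore of the N-type channel, which admits calcium for transmitter release at presynaptic terminals. It was 0.17 in the vector and -0.14 in the knockdown, a difference of -0.31 or 1.24-fold lower (chromosome 2, 24461895 to 24618680, minus strand, 48 probes). Cacng3 and Cacng8 are named as gamma subunits of calcium channels, but both are known as TARPs, transmembrane proteins that bring AMPA-type glutamate receptors to the synapse and modify their gating. They stood on opposite sides. Cacng3 was 0.20 and -0.24, a difference of -0.44 or 1.36-fold lower (chromosome 7, 129815288 to 129912360, plus strand, 26 probes). Cacng8 was -0.06 and 0.10, a difference of 0.16 or 1.12-fold higher (chromosome 7, 3394567 to 3415366, plus strand, 38 probes). Whether both differ from each other was not tested, since no value per array was at hand. None of the 16 genes of ionotropic glutamate receptors, the AMPA receptor subunits included, was listed.

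Potassium channel genes were listed in 4 cases, 3 of them lower. Kcnab2 encodes a cytosolic beta subunit that binds the Shaker-type pore. It was 0.15 in the vector and -0.18 in the knockdown, a difference of -0.34 or 1.26-fold lower (chromosome 4, 151764853 to 151851589, minus strand, 36 probes). Kcnip3 encodes a calcium-binding partner of the A-type channel pore that is also known as a transcriptional repressor. It was 0.12 and -0.13, a difference of -0.24 or 1.18-fold lower (chromosome 2, 127282232 to 127352905, minus strand, 34 probes). Both listed auxiliary subunits of potassium channels were therefore lower, out of 16 such genes in RefSeq.

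Kcnh2, the pore of the ERG channel known for repolarisation of the heart, was 0.13 and -0.13, a difference of -0.26 (chromosome 5, 23825407 to 23857422, minus strand, 36 probes), and -0.10 relative to the median of the table. Of the 40 voltage-gated pore genes in RefSeq 2 were listed, and none of the 37 genes of inward rectifier, leak, and calcium- or sodium-activated potassium channels was.

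Receptors other than P2rx3 were all listed as higher, and none of them reached a fold of 1.3. Relative to the median of the table Chrm4 and Htr6 did so, where 22% of the whole table was higher past it. Chrm4 encodes a muscarinic acetylcholine receptor that acts through inhibitory G proteins. It was -0.21 in the vector and 0.12 in the knockdown, a difference of 0.33 or 1.26-fold higher, the largest increase among the members (chromosome 2, 91767375 to 91768934, plus strand, 25 probes). Chrnb2, a widespread subunit of neuronal nicotinic receptors, was -0.05 and 0.04, a difference of 0.09 or 1.07-fold higher (chromosome 3, 89557370 to 89568507, minus strand, 31 probes). This was the smallest absolute difference of the members, and 2329 transcript clusters of the table had a larger one. Htr6, a serotonin receptor that acts through stimulatory G proteins, was -0.11 and 0.11, a difference of 0.22 or 1.16-fold higher (chromosome 4, 138617324 to 138630704, minus strand, 27 probes).

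When channel subunits were set apart from transmitter receptors, 8 of 10 channel transcript clusters, from 9 genes, were lower with a median difference of -0.29, beside 59.9% lower in the whole table. Of 5 receptor transcript clusters 1 was lower and the other 4 were higher, beside 40.1% higher in the whole table. The receptors' median was 0.14. Relative to the median of the table, the medians were -0.12 for channels and 0.31 for receptors. This division was made with the values known and rests on few genes, so it is a description only. Cacng3 and Cacng8 were counted as channel subunits by their names, although both are known as TARPs of AMPA receptors. The exceptions included Cacng8 among channel subunits and P2rx3, which is a receptor and a channel at once, among receptors. After subtraction of the median of the table, Scn3a also turned from lower to higher.

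**Figure D2:**
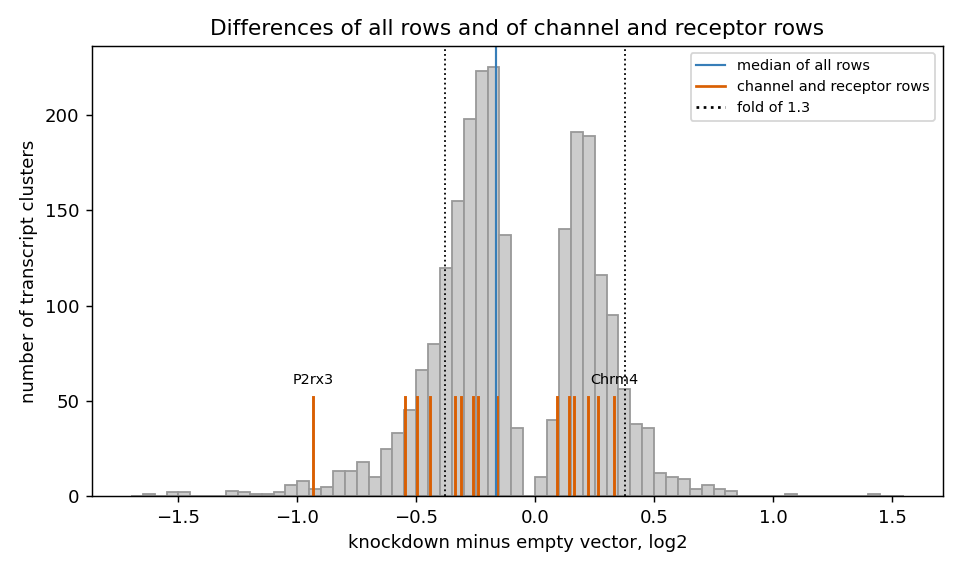
Histogram of the log2 difference (knockdown minus empty vector, horizontal axis) for all 2395 transcript clusters (vertical axis, number per bin), with orange lines for the 15 channel and receptor transcript clusters, dotted lines at a fold of 1.3 and a blue line at the median of -0.16. The members spread over both peaks, 4 lie below the lower dotted line and none above the upper one, and few transcript clusters of any kind lie near 0.

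The histogram of all differences holds only transcript clusters within the authors' limit, so it does not give the share of channels that changed. RefSeq (GRCm38.p6) holds 258 protein-coding genes of these families, of which the 14 listed genes are 5.43%, all matched by gene identifier. The same share over all genes of the array was not worked out. As a guide to it, 2088 of 32851 RefSeq promoter windows belonged to listed genes. No gene of HCN channels (4 in RefSeq), CLC channels and transporters (9), TRP channels (21) or metabotropic glutamate receptors (8) was listed. Genes below the authors' 20th percentile of expression had been left out, and how many of these families were removed in that way is not known here.

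Genes of related function were compared next, from lists drawn up by function but with earlier results of these data known. Their counts are therefore a description only. Of 75 genes of other ion channels, 11 were listed with 12 transcript clusters, 6 lower and 6 higher, beside 59.9% lower in the whole table. Clic4, among the lower ones, turned from -0.08 to 0.09 relative to the median of the table. Past a fold of 1.3 there was only Accn4 (now Asic4), of the acid-sensing channel family, at -0.46 (chromosome 1, 75447035 to 75470915). Relative to the median of the table it no longer passed, at -0.30. Stim2 at 0.48, Gjc1 at 0.48 and Lrrc8b at 0.40 then passed as higher, where 22% of the whole table did. Accn2 (now Asic1), a proton-gated channel and a relative of Accn4, was at 0.16. Stim2, the ER calcium sensor that opens store-operated channels, was at 0.32 and Gjc1, a connexin of gap junctions, at 0.32. Lrrc8b and Lrrc8c, subunits of volume-regulated anion channels, were at 0.24 and 0.17. Clic1 was at -0.30. Vdac2, the channel of the outer mitochondrial membrane, had transcript clusters on chromosomes 14 and 5 at -0.29 and -0.31, and the one on chromosome 5 spans 92189719 to 92190606, so probes may not separate near-identical copies.

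Of 52 genes of other transmitter receptors, 4 were listed and all 4 were higher. These were P2ry2, a G protein-coupled receptor for nucleotides, at 0.35, Hrh3, a histamine receptor, at 0.34, Oprl1, the nociceptin receptor, at 0.18 and Oprd1, the delta opioid receptor, at 0.15. None reached a fold of 1.3, but relative to the median of the table P2ry2 and Hrh3 did, both at 0.51. Subtracting that median raises every value by 0.16, and 22% of the whole table was then higher past this fold. Together with the members, 8 of 9 receptor transcript clusters were higher, and P2rx3 was the exception, where 40.1% of the whole table was higher. This grouping was formed after the values were seen. The 6 that encode G protein-coupled receptors (Chrm4 and Htr6 among the members) were all higher, between 0.15 and 0.35, and lay between 0.31 and 0.51 relative to the median of the table.

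Of 48 genes for the assembly, trafficking and anchoring of channels and receptors, 6 were listed. Of these, 5 were lower and 1 higher, beside 59.9% lower in the whole table. Lgi1, a secreted protein that bridges synaptic receptor complexes and whose loss causes epilepsy, was 0.55 in the vector and -0.70 in the knockdown, a difference of -1.26 or 2.39-fold lower (chromosome 19, 38339271 to 38383429, 13 probes). Cnih2, a cornichon protein that binds AMPA receptors as TARPs do, was at -0.32. Olfm1, a secreted glycoprotein of the synapse, was at -0.25. The scaffold genes Ank3, which anchors sodium channels at the axon initial segment, and Grip1, which binds AMPA receptors, were at -0.15 and -0.13 and turned to slightly higher values of 0.01 and 0.04 relative to the median of the table. Grinl1a, at 0.26, is named Polr2m in RefSeq, after a subunit linked to RNA polymerase, so its place in this list rests on the older name.

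**Figure D3:**
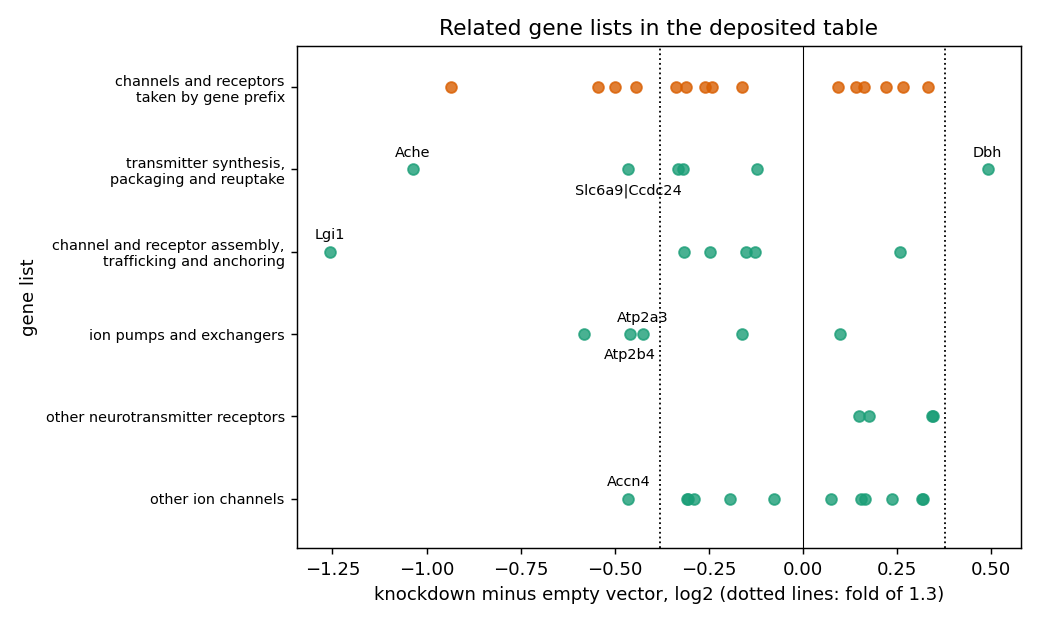
Log2 differences (knockdown minus empty vector, horizontal axis) of the transcript clusters listed for 5 related gene lists and, in the top line, for the 15 channel and receptor transcript clusters; dotted lines mark a fold of 1.3 and some of the genes past it are named. Lgi1 at -1.26 and Ache at -1.04 lie below every channel and receptor, and all 4 other transmitter receptors lie to the right of 0.

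The plot of related lists places 33 transcript clusters beside the members, of which 7 (21.2%) were lower and 1 (3.03%) was higher past a fold of 1.3, beside 16.1% and 6.26% of the whole table. Relative to the median of the table these counts became 3 lower and 7 higher, beside 6.64% and 22% of the whole table. The values of ion pumps and of transmitter metabolism are given among the other observations.

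Because the study asked about CCAAT boxes, the letters bound by the transcription factor NF-Y, the promoters of the members were searched. The study found these boxes enriched before genes lowered by NF-Y knockdown, in a wider region around the start site. It reported no such search for the Grp94 knockdown, so the shares below do not bear on that result. RefSeq promoters (GRCm38.p6) were at hand for 10 of the 14 genes, in 15 windows of the 250 bases before a start site, with P2rx3 and Scn3a among the genes without an entry here. The first pair below shows the lowest and the highest member with an entry, Scn9a and Chrm4. Kcnab2 was added after its matches were seen. Each is given 5' to 3' along the gene, and capitals mark CCAAT or ACGTG (the core of the hypoxia response element) or else TGATGNAA (a form of the ATF4 element) on either strand.
Scn9a, chr2:66634963-66635212, minus strand: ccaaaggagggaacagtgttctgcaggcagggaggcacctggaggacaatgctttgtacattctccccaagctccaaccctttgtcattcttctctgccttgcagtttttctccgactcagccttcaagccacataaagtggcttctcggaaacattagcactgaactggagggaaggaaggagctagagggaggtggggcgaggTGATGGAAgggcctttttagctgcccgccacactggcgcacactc
Chrm4, chr2:91921939-91922188, plus strand: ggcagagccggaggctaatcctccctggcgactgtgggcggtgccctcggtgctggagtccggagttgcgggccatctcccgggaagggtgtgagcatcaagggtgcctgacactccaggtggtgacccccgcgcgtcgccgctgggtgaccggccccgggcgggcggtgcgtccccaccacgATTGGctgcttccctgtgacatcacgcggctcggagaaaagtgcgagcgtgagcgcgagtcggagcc
Kcnab2, chr4:152477550-152477799, minus strand: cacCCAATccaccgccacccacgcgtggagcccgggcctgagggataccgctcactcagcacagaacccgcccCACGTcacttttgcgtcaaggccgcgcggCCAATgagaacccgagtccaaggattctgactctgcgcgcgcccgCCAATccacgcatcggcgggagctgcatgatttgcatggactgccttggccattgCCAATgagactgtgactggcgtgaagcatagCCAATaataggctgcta

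CCAAT was found in 5 of the 15 windows (33.3%), belonging to 4 of 10 genes, where 33.8% of all 32851 RefSeq windows and 35.5% of the 2088 windows of listed genes held it. The members were thus near the background. The match of Chrm4, the highest member, lay on the opposite strand at positions -67 to -63, counted from the start site. Cacna1b, a lower member, had a match on the opposite strand at -79 to -75. The upstream window of Kcnab2 held 5 matches, all on the gene's strand, and 0.213% of all windows held as many or more. Kcnip3 held a match in 2 of its windows. CCAAT therefore stood before both lower and higher members.

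ACGTG was found in 4 windows of 3 genes (Chrnb2, Htr6 and Kcnab2), or 26.7% against 16.6% of all windows and 22.1% of those of listed genes. TGATGNAA was found only before Scn9a, at -45 to -38. This was 1 of 15 windows (6.67%), against 3.45% of all windows and 2.35% of those of listed genes. The median GC content was 59.6% for the members' windows and 59.6% for those of listed genes, against 52.4% for all windows.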

How the data were processed

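The authors hybridised labelled cDNA of transfected N2a cells to 8 Affymetrix arrays (Mouse Gene 1.0 ST) and analysed them in Agilent GeneSpring GX, with genes below the 20th percentile of expression excluded. Groups were taken from the sample titles. The authors' deposited values used here are the log2 means of both groups, centred per transcript cluster. Summarization, normalization between arrays and genome build are not given in the sources used here. The deposited p-values, adjusted p-values, fold changes and directions are the authors' own comparison and were not used, except that the adjusted p-value was checked to exceed 0.01 in 0 of 2395 rows.

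The knockdown mean minus the vector mean was computed for every row, and members, role groups and related lists were counted in each direction past a fold of 1.3, beside all rows. No model or test was run. Named genes were Hsp90b1, every member, and members of related lists past a fold of 1.3, with other members of those lists named after their values were seen. Members and lists were chosen with earlier results of these data known. Promoters were matched by gene identifier, and ACGTG and TGATGNAA were added to CCAAT after the data were seen. Some members and sequences are not reported here by name. Counting was tested on simulated data. Alternatives changed the fold, the unit of counting, the membership and the zero point. Python 3.11.15, numpy 2.4.6, pandas 2.3.3 and matplotlib 3.10.9 were used.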

Additional observations from a re-analysis of the deposited data

How the results depend on the processing

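No paired analysis was possible because the deposited table holds only a mean per group, and for the same reason no array could be left out in turn. The count of lower members past the fold threshold went from 4 at 1.3 to 6 at 1.2, 1 (P2rx3) at 1.5 and 0 at 2, where 31.8%, 5.34% and 0.835% of all rows were lower. Higher members went from 0 to 2, Chrm4 among them, at 1.2, where 14.8% of all rows were higher. Counting only rows with 1 symbol, or dropping symbols of no channel, changed nothing, since no member was affected. The count of 4 lower members past 1.3 became 3 with 1 row per symbol and 3 for pore-forming or ligand-binding subunits only. The median difference of -0.24 became -0.20 and -0.16 in these settings. Re-centring on the median of all rows gave 2 lower and 3 higher members past 1.3 (6.64% and 22% of all rows), a median of -0.078, and -1.36 for Hsp90b1, and reversed Scn3a to 0.0026. This subtraction evens out the directions of listed rows by construction. For related lists, chosen after seeing the data, the 7 lower became 13 at a fold of 1.2, 2 at 1.5 or 2, and 3 after re-centring. The 1 higher (Dbh) became 5 at 1.2, 0 at 1.5 or 2, and 7 after re-centring. Without values per array, the signal over background and the error of single values are unknown.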

Other observations

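Ion pumps and exchangers were listed for 5 of 32 genes, 4 of them lower, beside 59.9% lower in the whole table. Atp2b4, a calcium pump of the plasma membrane, was at -0.46 and Atp2a3, a calcium pump of the ER, at -0.43, while its relative Atp2a2 was at 0.10. Slc24a2, an exchanger of sodium for calcium and potassium, was at -0.16 and turned to 0.0037 relative to the median of the table. All 3 that passed a fold of 1.3 were lower, where 16.1% of the table was lower past it. Relative to the median of the table, Atp2b4 at -0.30 and Atp2a3 at -0.26 no longer passed.

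Genes of transmitter synthesis, packaging and reuptake were listed for 6 of 36, 5 lower and 1 higher, beside 59.9% lower in the whole table. Ache, the enzyme that breaks down acetylcholine, was 0.50 in the vector and -0.54 in the knockdown, a difference of -1.04 or 2.05-fold lower (chromosome 5, 137729505 to 137735691). Slc6a9, a glycine transporter, was at -0.46, or -0.30 relative to the median of the table, but its transcript cluster is shared with Ccdc24. Gls2 and Abat, enzymes of glutamate formation and GABA breakdown, were at -0.33 and -0.32. The catecholamine enzymes stood apart, with Dbh, which makes noradrenaline, at 0.49 or 1.41-fold higher (chromosome 2, 27020753 to 27038724) and Th, the rate-limiting enzyme of the pathway, at -0.12, which turned to 0.04 relative to the median of the table.

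Chromosome 2 held 8 of the 15 channel and receptor transcript clusters (53.3%), from 7 of 14 genes, while it held 7.06% of all listed transcript clusters and 9.69% of the 258 RefSeq genes of these families. A pair of them belongs to Scn9a, and Scn3a lies 945900 bp from the nearer of this pair. Of the 8, P2rx3, both of Scn9a, Cacna1b, Kcnip3 and Scn3a were lower, and the other 2, Chrm4 among them, were higher. Over all 169 listed transcript clusters of chromosome 2, 56.8% were lower. This was noticed in the data and was not tested.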
